A study of Homo sapiens with 14 samples.

Results

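This account follows 28 genes of cholesterol synthesis and its control by SREBP2 through 14 RNA-seq libraries of HT-29, a cell line from a human colorectal carcinoma. The genes were taken by symbol from a count table of 36555 gene rows. All 28 were found, and all 28 passed a filter on low counts that left 22179 genes for testing. The lowest count of a member in any library was 209 reads, for HSD17B7, followed by 639 for STARD4. The study asked how ferrostatin-1 and liproxstatin-1, a pair of lipid radical-trapping inhibitors of ferroptosis, act on cells in which TNF induces apoptosis. The control group (3 libraries) was kept in medium with 0.1% DMSO. Other wild-type cells received 20 uM ferrostatin-1 (2 libraries), 20 uM liproxstatin-1 (2 libraries), TNF (2 libraries), TNF with 20 uM ferrostatin-1 (3 libraries) or TNF with 20 uM liproxstatin-1 (2 libraries). TNF was human recombinant protein, 100 ug/ml as labelled, and treatments lasted 72 h. HT-29 is a single carcinoma line, and the replicates are called technical, so every p-value below measures only the spread between these libraries.

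Cholesterol is built from acetyl-CoA through mevalonate, the isoprenoid diphosphates, squalene and lanosterol. When sterol in the endoplasmic reticulum is low, the escort protein SCAP carries the transcription factor SREBP2 to the Golgi, where a pair of proteases, encoded by MBTPS1 and MBTPS2, release its active part. INSIG proteins hold SCAP back when sterol is plentiful, and INSIG1 is itself an SREBP target. Squalene and the late sterol intermediates lie in the same membranes in which lipid peroxidation, the process that ferrostatin-1 and liproxstatin-1 block, takes place.

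Promoter letters are shown because SREBP2 acts at sterol regulatory elements beside NF-Y and Sp1 sites, and because these genes moved together in part. Windows of 300 bases (250 before to 50 after a start site) came from RefSeq on GRCh38.p14, and 25 of the 28 genes matched, with 33 windows. On either strand, TCACNCCAC, a form of the sterol regulatory element, was found in 1 of 25 genes (4.0%), SREBF2, against 1.39% of 27305 genes. CCAAT, the core of NF-Y sites, was found in 18 of 25 (72.0%) against 39.7% of those genes. GGGCGG, an Sp1-type GC box, was found in 21 of 25 (84.0%) against 48.3%. No motif contains another, and a match is a description of sequence only. SREBF2 is printed as the holder of TCACNCCAC. LSS, HSD17B7 and HMGCS1 are printed as the members outside that match with the smallest p for TNF with liproxstatin-1 against liproxstatin-1, among those with CCAAT before the start. In each, the 250 bases before the start site are given 5′ to 3′ on the gene's strand. Capitals mark TCACCCCAC in SREBF2, which begins 133 bases before the start, and CCAAT, read here as ATTGG from the other strand, in the rest.
SREBF2 promoter, chr22:41832855-41833104, plus strand: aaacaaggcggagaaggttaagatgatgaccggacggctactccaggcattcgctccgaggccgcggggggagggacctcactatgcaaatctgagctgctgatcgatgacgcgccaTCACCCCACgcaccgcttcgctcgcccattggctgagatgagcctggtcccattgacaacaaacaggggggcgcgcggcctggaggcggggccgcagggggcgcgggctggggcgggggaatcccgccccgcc
LSS promoter, chr21:46228775-46229024, minus strand: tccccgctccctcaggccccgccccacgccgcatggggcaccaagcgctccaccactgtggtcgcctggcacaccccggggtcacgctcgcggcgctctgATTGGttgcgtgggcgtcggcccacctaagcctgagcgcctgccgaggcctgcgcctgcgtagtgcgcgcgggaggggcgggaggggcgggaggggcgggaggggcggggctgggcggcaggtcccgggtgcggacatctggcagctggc
HSD17B7 promoter, chr1:162790452-162790701, plus strand: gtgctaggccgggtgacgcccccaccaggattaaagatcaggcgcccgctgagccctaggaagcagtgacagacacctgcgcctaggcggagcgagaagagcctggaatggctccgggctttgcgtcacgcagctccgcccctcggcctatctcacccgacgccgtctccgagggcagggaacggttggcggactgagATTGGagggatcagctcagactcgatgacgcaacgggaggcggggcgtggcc
HMGCS1 promoter, chr5:43313413-43313662, minus strand: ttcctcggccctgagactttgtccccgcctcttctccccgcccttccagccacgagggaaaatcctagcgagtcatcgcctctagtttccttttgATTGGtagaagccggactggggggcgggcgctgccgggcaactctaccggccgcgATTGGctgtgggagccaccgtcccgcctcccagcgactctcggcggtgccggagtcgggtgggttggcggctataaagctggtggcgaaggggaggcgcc
The capitals begin 150 bases before the start in LSS, 52 in HSD17B7, and 155 and 100 in HMGCS1, which has 2 matches.

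Library totals ran from 59913850 to 75838597 counts. Of 9 epithelial marker genes, none was at 0, and their summed level was 9229 to 13824 CPM (read counts scaled to library size) over the 14 libraries. The summed level of 7 markers of blood, vessel, stroma and muscle cells was 15.8 to 46.8 CPM, highest in the TNF libraries (33.7 and 46.8 CPM). PTPRC, the common leukocyte antigen, was at 0 in 13 libraries, but at most 2 of the 7 were at 0 throughout a group. For TNF against control, 1 of the 6 tested was called higher and 0 lower, beside 8.24% and 6.44% of all genes. What part these markers have in the TNF results was not tested. All 4 TNF-induced markers were called higher in TNF against control, among them TNFAIP3 with 5.75 to 5.82 CPM in controls and 95.2 and 115 CPM under TNF. The TNF libraries, numbered 1 and 3 as in the count columns, stood further apart (chi-square of 203 per degree of freedom) than any other pair of a group (14.9 to 74.3).

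Levels between genes were compared by the deposited FPKM, which divides by gene length. In control cells the highest members were SQLE (29.5 ± 4.05 FPKM, SD, n = 3), which oxidises squalene, and DHCR7 (29.45 ± 4.02 FPKM), which makes cholesterol in the last step of its branch. The lowest was HSD17B7 (0.855 ± 0.0980 FPKM), a reductase of the C4 demethylation complex. SQLE and DHCR7 also ranked 1 and 2 under TNF with ferrostatin-1 and under TNF with liproxstatin-1. INSIG1 changed its place most visibly, from rank 22 in control (4.55 ± 2.63 FPKM) to rank 17 under TNF with ferrostatin-1 (9.98 ± 0.359 FPKM) and rank 8 under TNF with liproxstatin-1 (25.6 ± 1.04 FPKM, n = 2). SQLE and DHCR7 differed by less than their spread in control.

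**Figure D1:**
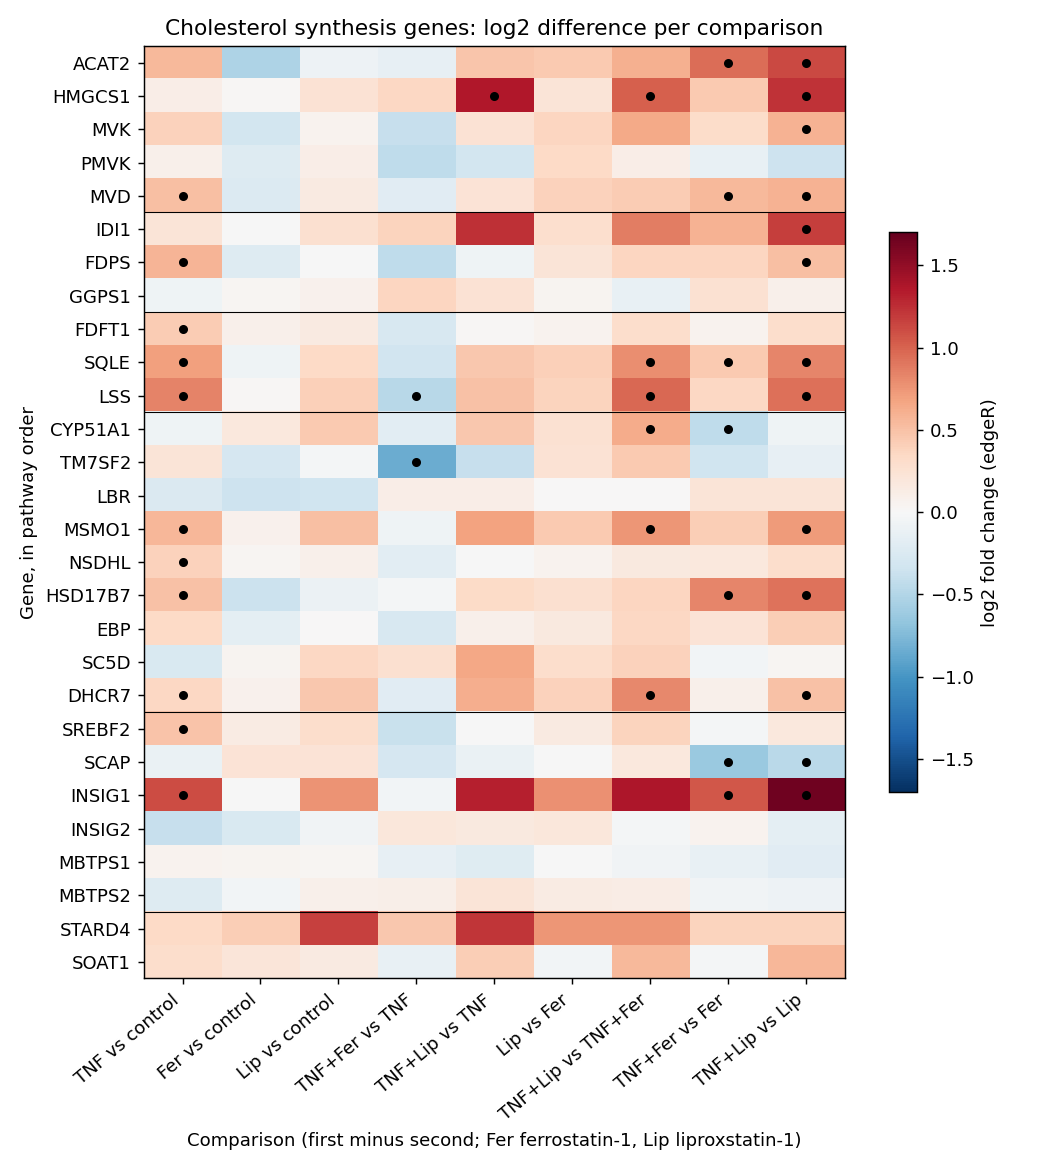
Log2 difference of each of 28 genes (rows, in pathway order, lines between roles) in 9 comparisons (columns); red is higher and blue lower in the group named first, and a black dot marks an adjusted p under 0.05. The right-hand column, TNF with liproxstatin-1 against liproxstatin-1, has 12 dots on higher and 1 on lower values, and the columns of either compound against control have none.

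TNF alone raised 11 of the 28 genes and lowered none, with edgeR's quasi-likelihood test and Benjamini-Hochberg adjustment over all 22179 genes at 0.05, which holds for every call below. The background was 8.24% of all genes called higher and 6.44% called lower. The median log2 difference of the members was 0.34, beside -0.02 over all genes. In these bulk libraries a change in the share of a kind of cell and a change in RNA per cell cannot be told apart. Calls fell on all 3 steps from farnesyl diphosphate to lanosterol, on 4 of 9 later steps, on 1 of 5 mevalonate genes and 1 of 3 isoprenoid genes, and on 2 of 6 genes of SREBP2 processing.

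LSS, which closes the ring of lanosterol, stood at 33.2, 39.9 and 32.1 CPM in control and at 67.6 and 57.9 CPM under TNF. The groups did not overlap, and the log2 difference was 0.84 ± 0.11 (SE; adjusted p = 0.000535). SQLE stood at 124, 149.6 and 127 CPM in control and at 210.3 and 224 CPM under TNF, higher by 0.70 ± 0.11 (adjusted p = 0.00112). LSS and SQLE kept their calls when any single library was left out. FDFT1, which makes squalene, rose by 0.43 ± 0.10, from 91.2 to 107 CPM in control to 124 and 138 CPM.

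FDPS, which makes farnesyl diphosphate, stood at 87.8, 102 and 83.1 CPM in control and at 157 and 115 CPM under TNF, a rise of 0.58 ± 0.13 (adjusted p = 0.0144). MVD, the decarboxylase at the end of the mevalonate arm, rose by 0.51 ± 0.13. Both had no overlap between groups. Of the later enzymes, MSMO1, which takes methyl groups off carbon 4, stood at 16.3, 18.1 and 16.4 CPM in control and at 20.8 and 29.2 CPM under TNF (0.56 ± 0.15, adjusted p = 0.0249). NSDHL (0.40 ± 0.11) and HSD17B7 (0.50 ± 0.15), which act in that same demethylation, and DHCR7 (0.35 ± 0.11) also rose.

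Among regulators, SREBF2, which encodes SREBP2, stood at 154, 187 and 154 CPM in control and at 251 and 212 CPM under TNF. It rose by 0.49 ± 0.11 (adjusted p = 0.0154). INSIG1 stood at 13.4, 28.1 and 10.6 CPM in control and at 34.9 and 39.9 CPM under TNF, a rise of 1.11 ± 0.29 (adjusted p = 0.0277). Control library 2 was the high one for INSIG1, and without it the difference was 1.63 (adjusted p = 3.97e-05). Without control 1 or control 3 INSIG1 was not called (adjusted p = 0.0995 and 0.0659). INSIG2, the other INSIG gene, was at 30.3, 35.6 and 30.4 CPM in control and at 15.5 and 33.6 CPM under TNF, so that its groups overlapped.

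Each of the other 9 genes lost its call without at least 2 of these 5 libraries in turn. Calls over all genes moved too, from 3255 with every library. Without control 1 or control 3, 2 members were called (LSS and SQLE), beside 1766 and 2002 genes. Without control 2, 13 members and 3416 genes were called, and without TNF library 1, 7 members and 2201 genes. Without TNF library 3, 19 members were called, 6 of them lower, beside 7380 genes. A model of the TNF and control libraries alone called 0 members and 397 genes, and limma voom with quality weights 3 members and 1514 genes. Control library 2 lay above the mean of controls for 25 of 28 members. Its gap to the other controls had a median of 0.25 over the members on the log2 scale and of -0.02 over 11645 protein-coding genes.

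**Figure D2:**
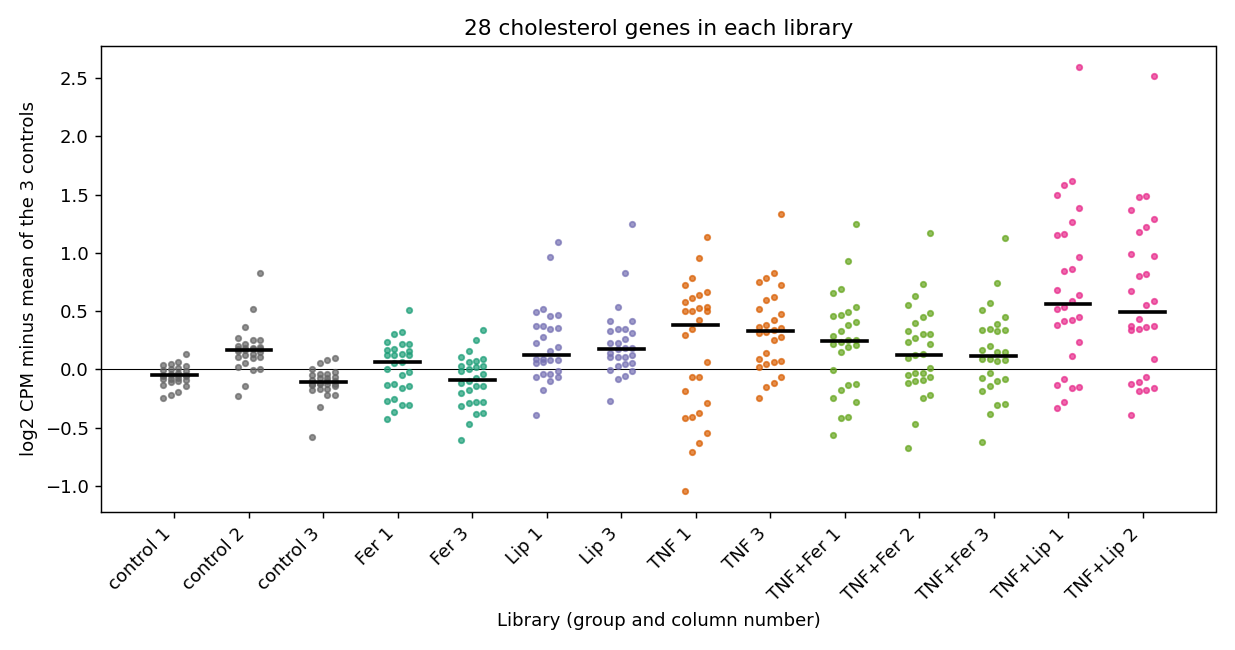
Each point is 1 of 28 genes in 1 library, as log2 CPM minus the mean of the 3 controls; black bars are medians. Medians were highest in the TNF with liproxstatin-1 libraries (0.56 and 0.50), and TNF library 1 had the widest lower tail.

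The TNF libraries differed more than 1.5-fold for 10 of 28 members (35.7%), beside 27.2% of 11645 genes. STARD4, which carries sterol between membranes, was at 8.46 CPM in library 1 and 19.5 CPM in library 3. INSIG2, GGPS1, HMGCS1, IDI1, SC5D, SOAT1 and MBTPS2 were also lower in library 1, for example HMGCS1 at 39.9 and 76.2 CPM and IDI1 at 25.7 and 48.4 CPM. TM7SF2 (60.4 and 39.3 CPM) and PMVK (30.9 and 20.5 CPM) were higher there. The gap followed the GC content of the coding transcripts, with a Spearman rank correlation of 0.85 over the 28 genes and 0.67 over 11645 genes of the same library pair, as a description. STARD4 (39.3% GC) and INSIG2 (37.2% GC) lay at the low end, and TM7SF2 (62.7% GC) near the high end.

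**Figure D3:**
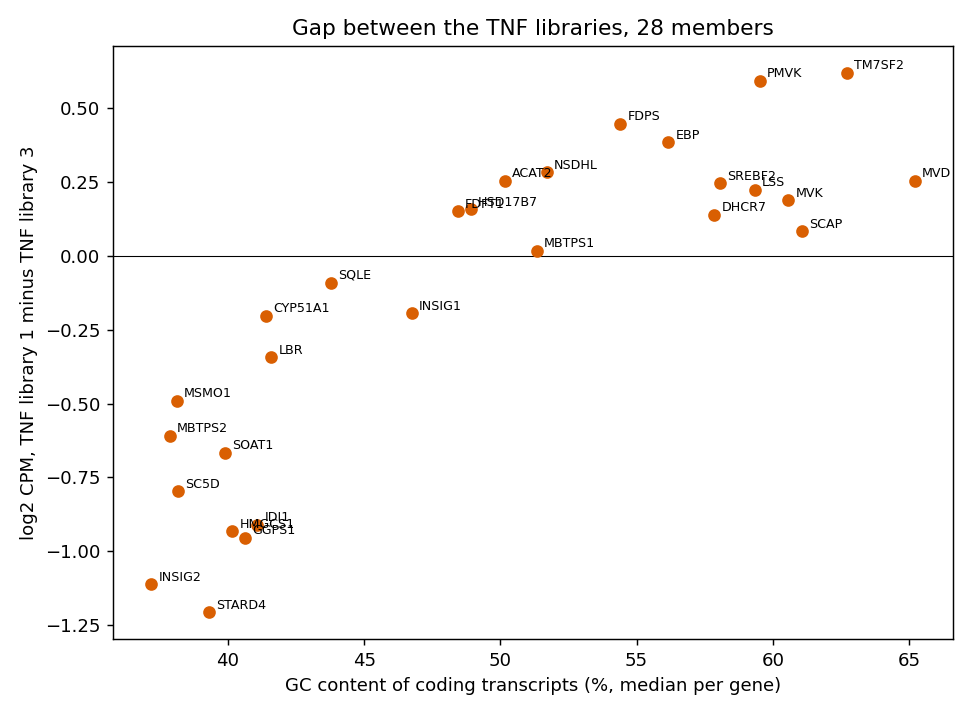
Log2 CPM of TNF library 1 minus library 3 against the median GC content of each gene's coding transcripts, for 28 genes. INSIG1 (46.7% GC) and every gene of lower GC lie below 0, and every gene of higher GC lies above 0.

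The same ordering by GC was seen in group comparisons that use the TNF libraries. The Spearman rank correlation of the log2 difference with GC was 0.35 over the members for TNF against control (0.49 over 11645 genes). For TNF with ferrostatin-1 against TNF it was -0.80 (-0.64), and for TNF with liproxstatin-1 against TNF -0.51 (-0.54). For the interactions of TNF with ferrostatin-1 and with liproxstatin-1, given below, it was -0.52 (-0.55) and -0.54 (-0.47). In the 6 comparisons without the TNF libraries it ran from -0.23 (ferrostatin-1 against control) to 0.028 (liproxstatin-1 against ferrostatin-1) over the members. Over the 11645 genes it ran from -0.065 (ferrostatin-1 against control) to 0.21 (liproxstatin-1 against ferrostatin-1, both with TNF). When a trend with GC was removed from each library, 14 members were called higher and 1 lower with TNF, beside 4041 genes in all, and 7 of the 11 were still called. Beyond that, the part of GC content in these results was not tested.

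Neither compound alone moved a member past the threshold. Ferrostatin-1 against control called 0 of 28 by edgeR and by DESeq2 and 1 by voom. These tools called 125, 797 and 1604 of all genes. By edgeR 4 members had an unadjusted p under 0.05, beside 2726 of all 22179 genes. All genes were called higher at 0.185% and lower at 0.379%, and the median log2 difference of members was 0.0057. Liproxstatin-1 against control called 0 of 28 by edgeR, 5 by DESeq2 and 10 by voom, all of them higher. Over all genes these tools called 13, 512 and 1463. An unadjusted p under 0.05 by edgeR was found for 10 members, beside 2658 of all 22179 genes. Here 0.0541% of all genes were called higher and 0.00451% lower, the member median was 0.15, and 12 members lay above all controls, beside 17.8% of genes.

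STARD4 had the widest difference under liproxstatin-1, with 10.4, 13.1 and 9.76 CPM in control and 23.5 and 26.1 CPM under the compound. Its groups lay apart, and its log2 difference was 1.16 (95% interval 0.60 to 1.73, adjusted p = 0.143). DHCR7 stood at 124, 142 and 117 CPM in control and at 182 and 170 CPM under liproxstatin-1 (0.46, interval 0.23 to 0.69, adjusted p = 0.145). CYP51A1, which removes the methyl group at carbon 14 of lanosterol, stood at 68.2, 71.3 and 66.7 CPM in control and at 95.2 and 91.5 CPM (0.44, interval 0.22 to 0.66, adjusted p = 0.145). INSIG1, at 30.9 and 28.2 CPM, lay above every control, the highest of which was 28.1 CPM. Both TNF libraries take no part in this contrast but enter the estimate of spread. Without them 4 members were called, beside 187 genes. With the GC trend removed 2 members and 53 genes were called, STARD4 among them (1.20, adjusted p = 0.00271).

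Ferrostatin-1 under TNF lowered TM7SF2 and LSS and raised no member. Of all genes, 1.77% were called higher and 3.75% lower, and the member median was -0.16. TM7SF2, a sterol reductase acting after CYP51A1, stood at 60.4 and 39.3 CPM under TNF and at 28.8, 26.7 and 27.7 CPM with ferrostatin-1 (-0.84 ± 0.17, adjusted p = 0.0235). LSS stood at 67.6 and 57.9 CPM under TNF and at 47.9, 43.2 and 44.4 CPM with ferrostatin-1 (-0.47 ± 0.11, adjusted p = 0.0397). Neither call stood without TNF library 1 (TM7SF2 -0.50, adjusted p = 0.0932; LSS -0.36, adjusted p = 0.159) or without any TNF with ferrostatin-1 library. Without TNF library 3, 17 members were called, 7 higher and 10 lower, but the calls over all genes also went from 1224 to 7373. LSS was also not called with the GC trend removed (-0.22, adjusted p = 0.138), under which 8 members were called, all lower, beside 1967 genes.

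Liproxstatin-1 under TNF raised HMGCS1, the synthase that starts the mevalonate arm after acetoacetyl-CoA, and lowered no member. Background calls were 0.239% higher and 0.104% lower, and the member median was 0.24. HMGCS1 stood at 39.9 and 76.2 CPM under TNF and at 151 and 149 CPM with liproxstatin-1, a rise of 1.37 ± 0.23 (adjusted p = 0.0366). Without TNF library 1, where it was low, the rise was 0.97 (adjusted p = 0.00567), and without either TNF with liproxstatin-1 library it was not called (adjusted p = 0.173 and 0.192). DHCR7 (0.62, adjusted p = 0.0525), IDI1, the isomerase of isopentenyl diphosphate (1.24, adjusted p = 0.0616), and INSIG1 (1.32, adjusted p = 0.0788) did not pass. By DESeq2 10 members were called higher and 1 lower, and without TNF library 3, 14 were higher and 2 lower. Calls over all genes were 2458 and 6797 in these fits, against 76 by edgeR with every library.

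**Figure D4:**
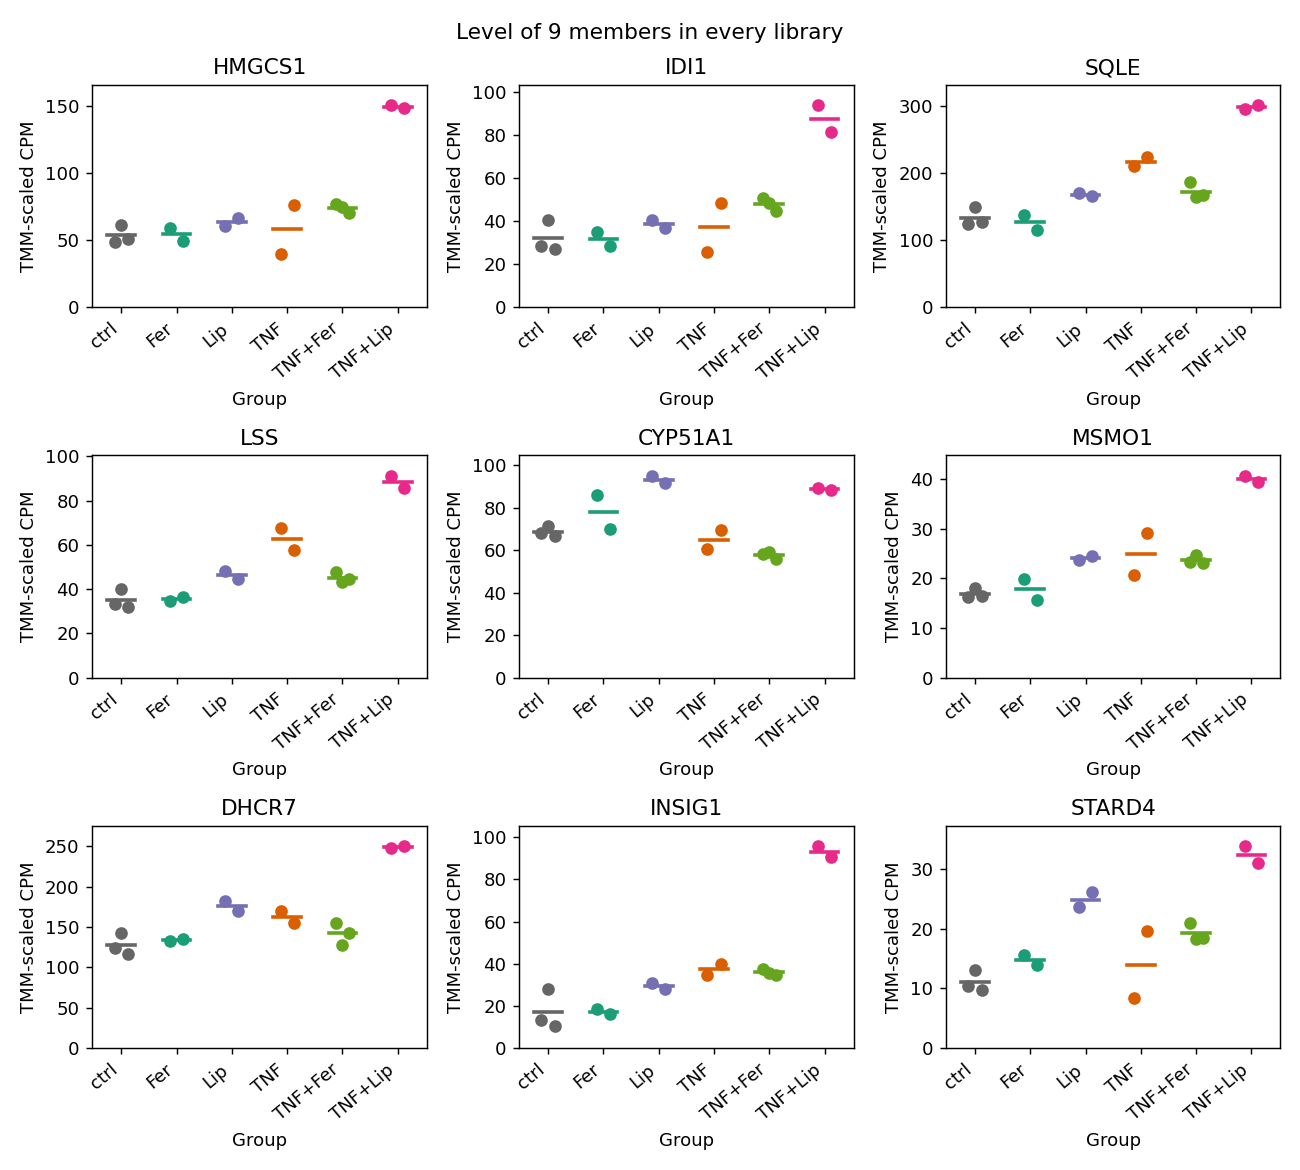
Scaled CPM of 9 members in each of 14 libraries, by group on a linear axis from 0; points are libraries and bars are group means. In every panel but that of CYP51A1 both TNF with liproxstatin-1 libraries lie above the other 12 libraries.

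The compounds were compared directly at the same 20 uM and 72 h, without and with TNF. Ferrostatin-1 is a cyclohexylamino benzoate ester, and liproxstatin-1 is a spiro compound that joins a quinoxaline to a piperidine ring. Without TNF no member differed by edgeR or DESeq2 (4 by voom, all higher under liproxstatin-1). The same tools called 23, 220 and 302 of all genes. By edgeR 9 members had an unadjusted p under 0.05, beside 1444 of all 22179 genes. Calls over all genes were 0.0857% higher and 0.018% lower under liproxstatin-1. As a description, 21 of 28 members lay above both ferrostatin-1 libraries and none below, beside 21.1% of genes each way, and the member median was 0.25. Members can shift together within a library, as in control library 2, above the control mean for 25 of 28. A count over members therefore adds no replicates to the 2 libraries of each group. SQLE (138 and 116 CPM against 169.9 and 167 CPM) had a difference of 0.41 (interval 0.15 to 0.66, adjusted p = 0.371). Intervals of DHCR7 (0.14 to 0.64) and LSS (0.11 to 0.66) reached as far, so these data do not show that the compounds act alike.

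Under TNF, 6 of 28 members were called higher in the liproxstatin-1 group than in the ferrostatin-1 group and none lower, beside 0.681% of all genes called higher and 0.0857% lower. The member median was 0.41, beside 0.0022 over all genes, and 21 members lay above all ferrostatin-1 libraries, 1 below. Of all genes, 18.0% lay above and 15.9% below. Called genes were HMGCS1, SQLE, LSS, CYP51A1, MSMO1 and DHCR7, from early to late in the pathway. These 6 lie at chromosome 5 (43287470 to 43313512, HMGCS1), 21 (46188141 to 46228822, LSS), 7 (92112153 to 92134803, CYP51A1), 4 (165327667 to 165343164, MSMO1), 11 (71428193 to 71452868, DHCR7) and 8 (SQLE), as the count table gives them with no named build.

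LSS stood at 47.9, 43.2 and 44.4 CPM with ferrostatin-1 and at 91.2 and 85.7 CPM with liproxstatin-1 (0.97 ± 0.11, adjusted p = 0.00237). DHCR7 stood at 155, 128 and 143 CPM and at 248 and 250.1 CPM (0.81 ± 0.10, adjusted p = 0.00498). SQLE stood at 187, 164 and 167 CPM and at 295 and 302 CPM (0.79 ± 0.11, adjusted p = 0.00556). In these 3 genes the groups lay apart. CYP51A1 stood at 58.1, 59.0 and 56.1 CPM and at 89.5 and 88.6 CPM (0.63 ± 0.10, adjusted p = 0.0175). MSMO1 stood at 23.4, 24.7 and 23.1 CPM and at 40.7 and 39.4 CPM (0.75 ± 0.14, adjusted p = 0.039). HMGCS1 stood at 77.3, 74.5 and 69.9 CPM and at 151 and 149 CPM (1.02 ± 0.21, adjusted p = 0.048). In each, the liproxstatin-1 libraries were close to each other and above every ferrostatin-1 library.

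INSIG1 had the largest difference of the members (37.7, 35.7 and 34.7 CPM against 95.8 and 90.6 CPM) but did not pass (1.37 ± 0.29, adjusted p = 0.0624). It passed without both TNF libraries (adjusted p = 0.0302), with the GC trend removed (0.0388) and in a model of these 5 libraries alone (0.000107). That last model called 16 members, all higher, beside 575 genes, against 170 genes in the model of all libraries. MVK, which phosphorylates mevalonate (0.64, adjusted p = 0.097), and IDI1 (0.87, adjusted p = 0.173) also did not pass. GGPS1, which makes geranylgeranyl diphosphate, stood at 41.8, 41.7 and 38.1 CPM against 39.2 and 35.3 CPM, and LBR, a sterol reductase of the nuclear envelope, at 117, 129.9 and 119.9 CPM against 119 and 127 CPM. Without TNF with ferrostatin-1 library 1, 2 or 3, 3 members were called, beside 65, 46 and 52 genes. A fit without 1 TNF with liproxstatin-1 library leaves a single library in that group. Without its library 1 and library 2, the differences were 0.91 and 1.00 for LSS and 0.79 and 0.76 for SQLE. CYP51A1, MSMO1 and HMGCS1 lost their calls without each of the 5, and SQLE and DHCR7 without either liproxstatin-1 library. LSS kept its call without 4 of these 5 libraries and had an adjusted p of 0.0523 without liproxstatin-1 library 1. With both TNF libraries out of the model 11 members and 415 genes were called, and with the GC trend removed 10 members and 192 genes, the members all higher and holding the same 6.

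**Figure D5:**
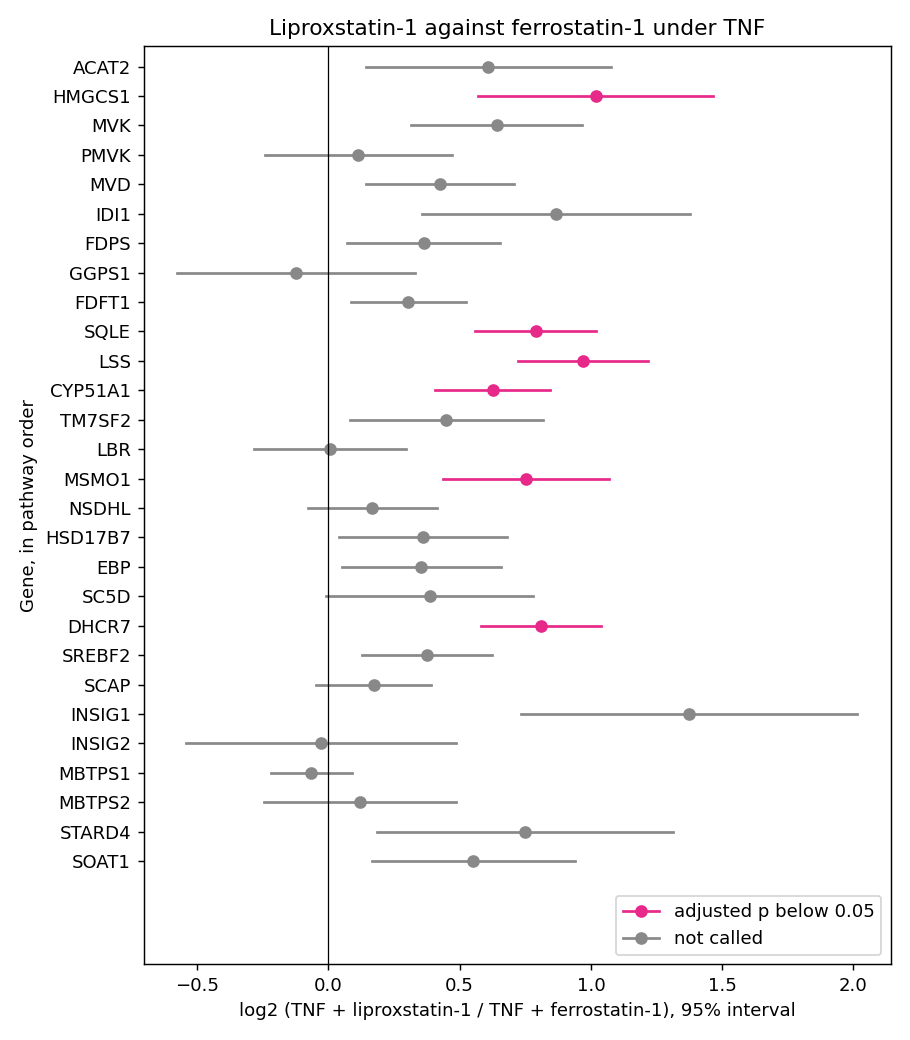
Log2 difference of TNF with liproxstatin-1 minus TNF with ferrostatin-1 for each member, with 95% intervals; pink marks an adjusted p under 0.05. Points of 25 of 28 genes lie above 0, and INSIG1 lies furthest right with a wide interval.

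The change with TNF was also measured within each compound. Under liproxstatin-1, TNF raised 12 members and lowered 1 (7.57% and 7.03% of all genes), with a member median of 0.40. INSIG1 stood at 30.9 and 28.2 CPM under liproxstatin-1 and at 95.8 and 90.6 CPM with TNF (1.66 ± 0.33, adjusted p = 0.00669). HMGCS1 stood at 60.9 and 66.4 CPM and at 151 and 149 CPM (1.23 ± 0.23, adjusted p = 0.00446). IDI1 (1.18 ± 0.26) and ACAT2, which joins acetyl-CoA units (1.12 ± 0.24), also rose, as did LSS, HSD17B7, SQLE, MSMO1, MVD, MVK, FDPS and DHCR7 by 0.50 to 0.93. The gene ACAT2 overlaps TCP1 on the other strand by 615 bases, and the strand setting of the counts is not known, so its values are uncertain. Leaving out liproxstatin-1 library 1 or 3 gave 5 and 4 called members, and leaving out TNF with liproxstatin-1 library 1 or 2 gave 5 and 8. These 4 fits called 1328 to 1485 genes, against 3240 with every library. LSS, SQLE, HSD17B7 and HMGCS1 kept their calls in all 4 of these fits, and INSIG1 lost its call without liproxstatin-1 library 3 (adjusted p = 0.0622).

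Under ferrostatin-1, TNF raised 5 members and lowered 2, beside 8.76% and 9.36% of all genes. HSD17B7 (0.84 ± 0.15), ACAT2 (0.95 ± 0.22), MVD (0.55 ± 0.13), SQLE (0.45 ± 0.11) and INSIG1 (1.06 ± 0.31) rose. INSIG1 stood at 18.4 and 16.1 CPM under ferrostatin-1 and at 37.7, 35.7 and 34.7 CPM with TNF. CYP51A1 stood at 86.0 and 70.1 CPM and at 58.1, 59.0 and 56.1 CPM, and fell by 0.44 ± 0.10 (adjusted p = 0.0108). Its difference was -0.28 without ferrostatin-1 library 1 and -0.58 without ferrostatin-1 library 3. The member median was 0.23. Leaving out either ferrostatin-1 library gave 3 called members, beside 1877 and 1919 genes, against 4019 with every library. HSD17B7 kept its call without any single library, and INSIG1 lost it without each of the 5. With the GC trend removed 9 members were higher and 2 lower (4666 genes called), and without both TNF libraries 11 were higher and 3 lower (6391 genes).

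SCAP fell with TNF in the presence of either compound. It stood at 113 and 117 CPM under ferrostatin-1 and at 73.4, 70.6 and 78.9 CPM with TNF (-0.63 ± 0.10, adjusted p = 0.00113). Under liproxstatin-1 it stood at 119 and 110.4 CPM and with TNF at 77.7 and 89.7 CPM (-0.45 ± 0.11, adjusted p = 0.0173). The call under ferrostatin-1 held without any single library, and that under liproxstatin-1 was lost without either liproxstatin-1 library or TNF with liproxstatin-1 library 1. These are contrasts in which INSIG1 rose. In TNF against control the SCAP groups overlapped (88.5 to 103 CPM against 87.9 and 93.1 CPM). MBTPS1 stood between 154 and 185 CPM in all 14 libraries and MBTPS2 between 17.8 and 28.6 CPM, neither called in any comparison. SREBF2 was called in TNF against control alone among the 11 comparisons, which does not show that it differs in the others.

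Over the 11 comparisons 18 members were called at least once and 10 never. The share of all genes called at least once was not counted, so these numbers have no background beside them. In single comparisons calls covered up to 18.1% of all genes (TNF within ferrostatin-1). Never called were PMVK, GGPS1, LBR, EBP, SC5D, INSIG2, MBTPS1, MBTPS2, STARD4 and SOAT1. EBP, a sterol isomerase, was at 35.9, 41.9 and 34.0 CPM in control and at 53.1 and 47.1 CPM under TNF with liproxstatin-1. SC5D, a sterol desaturase, was at 42.4, 44.8 and 36.3 CPM in control, at 25.1 and 43.6 CPM under TNF and at 54.7 and 53.1 CPM under TNF with liproxstatin-1, its highest group with the 2 liproxstatin-1 libraries (53.2 and 52.1 CPM). SOAT1, which esterifies cholesterol for storage, was highest at 20.4 CPM under TNF with liproxstatin-1, close to 17.2 CPM in TNF library 3. PMVK, the kinase after MVK, ranged from 18.2 to 30.9 CPM, with the top in TNF library 1. STARD4 was at 33.8 and 30.9 CPM under TNF with liproxstatin-1, above all other libraries.

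Whether TNF acted differently with a compound than without it was tested by interaction. For ferrostatin-1, 0 of 28 members passed by edgeR and voom and 1 by DESeq2, which called 1331 genes. By edgeR 7 members had an unadjusted p under 0.05, beside 4238 of all 22179 genes. After adjustment 0.00451% of genes were called higher and 0% lower. SCAP (-0.52, interval -0.83 to -0.21, adjusted p = 0.125) and SREBF2 (-0.52, interval -0.87 to -0.17, adjusted p = 0.146) had the smallest p. With the GC trend removed SCAP was at -0.28 and SREBF2 at -0.29 (adjusted p = 0.214 and 0.204). In that fit 2 other members were called, both lower, beside 240 genes. For liproxstatin-1, 0 of 28 passed by edgeR and voom and 1 by DESeq2, which called 1303 genes. By edgeR 5 members had an unadjusted p under 0.05, beside 4329 of all 22179 genes. After adjustment 0% of genes were called either way. HMGCS1 had the smallest p (1.12, interval 0.44 to 1.80, adjusted p = 0.139). With the GC trend removed HMGCS1 was at 0.61 (adjusted p = 0.0554). Leaving out TNF library 3 gave 12 and 10 called members for the 2 interactions, in fits that called 6147 genes each. These comparisons share control and TNF libraries with those above.

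Genes around the pathway were also called in part. Of 9 partners of the enzymes, TNF raised ERG28, a scaffold of the demethylation enzymes (0.69 ± 0.19), and HSD3B7, which acts in bile acid synthesis (0.80 ± 0.16), and lowered none. In that comparison 8.24% of all genes were called higher and 6.44% lower. HSD3B7 kept its call without any single library, and ERG28 lost it without control 1, control 3 or TNF library 1 (0.33 without the last, adjusted p = 0.296). Against TNF alone, TNF with ferrostatin-1 lowered 3 of the 9 partners (3.75% of all genes). TNF within ferrostatin-1 raised 2 and lowered 2 (8.76% and 9.36% of all genes). Of 12 genes of SREBP2 and reductase turnover, none was called for TNF against control. With TNF within ferrostatin-1, 2 were lower (9.36% of all genes), and for TNF with ferrostatin-1 against TNF 1 was higher (1.77%). In the same list, under ferrostatin-1 alone MYLIP, a ubiquitin ligase that targets lipoprotein receptors, rose by 0.85 ± 0.10 (adjusted p = 0.00372, and 0.073 without ferrostatin-1 library 3). Of 13 isoprenoid branch genes, 4 were called lower for TNF against control, PDSS1, FNTA, PGGT1B and RABGGTB, by 0.46 to 0.94, and none higher. The shares of all genes there were 6.44% lower and 8.24% higher. PDSS1 kept its call without any single library, and the other 3 lost theirs without control 1, control 3 or TNF library 1 (without the last, FNTA -0.26, PGGT1B -0.42 and RABGGTB -0.49). FNTA, PGGT1B and RABGGTB encode prenyltransferase subunits, and PDSS1 makes the side chain of coenzyme Q.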

How the data were processed

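Stranded (dUTP) libraries of poly(A) RNA were sequenced, per the labels' protocols. Deposited values are unnormalized counts and FPKM for each gene and library, as the authors made them. The submitters' processing notes list DESeq2, edgeR, HISAT2 2.0.4, cutadapt 1.9 and StringTie 1.3.4d with no role. Build, annotation, counter and strandedness of counting were all not given in the sources used here. Overlapping antisense genes are therefore uncertain (ACAT2 with TCP1, MVK with MMAB, GGPS1 with ARID4B, FDPS with RUSC1-AS1). Overlaps on the same strand, which no strand setting resolves, include GGPS1 with TBCE (15963 bases) and MBTPS2 with YY2 (2754 bases). Mean counts were 2451 for GGPS1 and 457 for TBCE, and 1751 for MBTPS2 and 337 for YY2. In 3 groups (TNF alone and each compound alone) column numbers are 1 and 3 but titles have 1 and 2. Their count columns were matched by group, and their 6 FPKM columns were not used. FPKM, deposited by the authors, served for levels between genes only.

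Counts were scaled by TMM (factors 0.947 to 1.05), filtered by filterByExpr and tested with edgeR 4.0.16 under R 4.3.3 in a single quasi-likelihood model of 6 groups, with Benjamini-Hochberg adjustment over 22179 genes at 0.05. CPM in the text is scaled by TMM. No pair of libraries within a group was alike within sampling noise. Library numbers did not pair the 8 libraries whose columns carry the titles' numbers, and the other 6 were not checked. Members and lists were chosen with earlier results of these data known. All members could be named, with up to 8 called members and all regulators in full per comparison, and up to 4 called genes of each related list. The promoters of LSS, HSD17B7 and HMGCS1 were chosen after values were seen. Alternatives were DESeq2 1.42.0, limma 3.58.1 voom, other scaling and filters, the compared groups alone, a replicate block and each library left out. Removal of a GC trend (spline with 6 degrees of freedom, 14992 protein-coding genes), removal of both TNF libraries and the unblocked fit of the blocked libraries were added after seeing the data. The model was also run on simulated counts with a single spread per gene across the groups. That run does not cover the wider gap between the TNF libraries.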

Additional observations from a re-analysis of the deposited data

How the results depend on the processing

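Counts of called members depended on the settings, and the cause of each shift was not tested. With 1 library left out, called members numbered 2 to 19 for TNF against control, 0 to 0 for ferrostatin-1 against control, 0 to 1 for liproxstatin-1 against control, 0 to 17 for TNF with ferrostatin-1 against TNF, 0 to 16 for TNF with liproxstatin-1 against TNF, 0 to 0 for liproxstatin-1 against ferrostatin-1, 0 to 3 for these with TNF, 3 to 6 for TNF within ferrostatin-1, 4 to 8 for TNF within liproxstatin-1, and 0 to 12 and 0 to 10 for the interactions with ferrostatin-1 and liproxstatin-1. Fewer libraries enter each such fit, some fits leave 1 library in a group, and calls over all genes also shifted between these fits. Without control 1, 2 or 3, 1766, 3416 and 2002 genes were called for TNF against control, against 3255 with every library. Without TNF with ferrostatin-1 library 1, 2 or 3, that group against TNF had 191, 69 and 103 genes, against 1224. In the same fits TNF within ferrostatin-1 had 2833, 2870 and 2840 genes, against 4019.

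By voom 3 members were called for TNF against control, beside 1514 of all genes, a number given in brackets from here on. Ferrostatin-1 and liproxstatin-1 against control had 1 and 10 (1604 and 1463 genes), and TNF with ferrostatin-1 against TNF had 0 (14 genes). Liproxstatin-1 against ferrostatin-1 had 4 (302 genes), and 18 with TNF (813 genes). TNF within ferrostatin-1 had 14 (7240 genes), and TNF within liproxstatin-1 had 20 (6848 genes). DESeq2 gave 5 for liproxstatin-1 against control (512 genes) and 1 for each interaction (1331 genes with ferrostatin-1, 1303 with liproxstatin-1). Ferrostatin-1 and liproxstatin-1 with TNF against TNF had 5 and 11 (3933 and 2458 genes). The compared groups alone gave 0 for TNF against control (397 genes). Each compound with TNF against TNF also had 0 (11 genes with ferrostatin-1, 0 with liproxstatin-1). Liproxstatin-1 against ferrostatin-1 had 1 (93 genes), and 16 with TNF (575 genes). TNF within ferrostatin-1 had 16 (6937 genes). With no filter, TNF with ferrostatin-1 against TNF had 1 (537 genes). With a filter at a CPM of 1 in 3 libraries, TNF with liproxstatin-1 against TNF had 2 (117 genes). With the GC trend removed, counts were 2 for liproxstatin-1 against control (53 genes) and 2 for the ferrostatin-1 interaction (240 genes). Ferrostatin-1 and liproxstatin-1 with TNF against TNF had 8 and 7 (1967 and 1731 genes). Liproxstatin-1 against ferrostatin-1 had 1 (64 genes), and 10 with TNF (192 genes). TNF within ferrostatin-1 had 11 (4666 genes). Without both TNF libraries, liproxstatin-1 against control had 4 (187 genes) and liproxstatin-1 against ferrostatin-1 had 1 (127 genes). The last pair with TNF had 11 (415 genes), and TNF within ferrostatin-1 had 14 (6391 genes).

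Single genes were tallied only in comparisons where they were called, had an unadjusted p under 0.05 or were named. Of their values under other settings, 1617 kept direction and side of the threshold, genes that stayed uncalled included. Another 153 newly passed and 260 no longer passed. In 3 cases the sign changed, all with the GC trend removed. These were CYP51A1 for TNF with liproxstatin-1 against TNF (-0.059) and LBR in the ferrostatin-1 and liproxstatin-1 interactions (-0.025 and -0.037). The choice left out most small differences, whose sign turns most easily, so the tally does not measure stability. Where columns carry the titles' numbers (8 libraries: the controls and both groups given TNF and a compound), the numbers did not pair the samples (correlations of same-numbered libraries from -0.02 to 0.03). The 6 other libraries were not checked for pairing. For the compounds under TNF, a replicate block gave 5 called members (81 genes), beside 8 (256 genes) without the block on the same libraries.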

Other observations

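Of 10 genes of SREBP1 and fatty acid synthesis, 2 were called higher with ferrostatin-1 alone (SCD and SREBF1) and 1 with liproxstatin-1 alone (SCD). The shares of all genes called higher were 0.185% and 0.0541%. SCD, the desaturase that makes oleic acid, stood at 341, 349.8 and 359 CPM in control, at 895 and 837 CPM under ferrostatin-1 and at 967 and 900.1 CPM under liproxstatin-1. It rose by 1.31 ± 0.07 (SE) with ferrostatin-1 (adjusted p = 1.07e-05, edgeR) and by 1.42 ± 0.07 with liproxstatin-1 (adjusted p = 4.29e-06). No cholesterol gene was called in either comparison by edgeR, and the difference between the lists was not tested. SREBF1, which encodes SREBP1, rose by 0.62 ± 0.11 with ferrostatin-1 (adjusted p = 0.037), and lost this call without control 1, control 2 or either ferrostatin-1 library.

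With TNF alone 4 of 10 of these genes rose and 2 fell, beside 8.24% and 6.44% of all genes. ACSS2, which makes acetyl-CoA from acetate, rose by 1.00 ± 0.16, and ELOVL6, a fatty acid elongase, fell by 0.87 ± 0.24. ELOVL6 was at -0.41 without TNF library 1 and at -1.54 without TNF library 3, and lost its call without control 1 or control 2 (adjusted p = 0.081 and 0.0589). Under TNF, FASN, the fatty acid synthase, stood at 617, 466 and 613 CPM with ferrostatin-1 and at 1030.2 and 1184 CPM with liproxstatin-1 (0.97 ± 0.13, adjusted p = 0.00556). SCD (0.71 ± 0.07) and LPIN1, a phosphatidate phosphatase (0.58 ± 0.12), were also higher with liproxstatin-1, and the other 7 of 10 were not called. In that comparison 0.681% of all genes were called higher. LPIN1 lost its call when any of the 5 libraries was left out, and FASN without TNF with liproxstatin-1 library 2 (0.85, adjusted p = 0.105).

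Of 14 genes of sterol transport and storage, 13 were tested, and with TNF 4 were called higher and 1 lower, beside 8.24% and 6.44% of all genes. CYP27A1, the sterol 27-hydroxylase, rose by 2.16 ± 0.27, and GRAMD1A, a sterol carrier between membranes, by 0.92 ± 0.11. The gene called lower, SOAT2, was near 0 in every library (at most 0.671 CPM), so no fold is given.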
